A study of Mus musculus with 6 samples.

Results

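The glucocorticoid receptor and 8 genes that glucocorticoids are known to induce were examined in mouse lung tumors. They were chosen by gene symbol, as every probe on the arrays named Nr3c1, Fkbp5, Zbtb16, Klf9, Sgk1, Tsc22d3, Hsd11b1, Mt1 or Mt2, which makes 9 of the 36870 gene names on the arrays. The set was proposed with the tamoxifen over oil ratios of these samples already in view. The ratios and levels of the 9 genes are therefore given as a description, with no test.

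All mice had the genotype Ror1f/f; CAG-CreER; SPC-hEGFRdel746-750 on the C57BL/6J strain. The floxed Ror1 gene, the CreER driven by the broadly active CAG promoter, and the human EGFR transgene driven by the surfactant protein C promoter of alveolar type 2 cells were thus present in the oil controls too. Between the ages of 16 and 20 weeks they received tamoxifen or corn oil, and lung tumor RNA was taken at 20 weeks. There were 3 samples labelled tamoxifen and 3 labelled oil, and samples of the same number shared 2-colour arrays as a couple, each couple hybridised on 2 arrays with the dyes exchanged. Whether samples of different number came from separate animals is not stated in the labels. Sex-linked signal, given below, differed within each group, so the 3 samples of a group were not all from 1 animal, but samples alike in it may be. The p-values from limma measure the spread between these samples, part of which may be technical. No group without CreER was analysed here, so tamoxifen as a drug and a deletion of Ror1 cannot be told apart.

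Glucocorticoids cross the membrane and bind the glucocorticoid receptor, encoded by Nr3c1, which is held ready in the cytoplasm by heat shock protein 90 and its co-chaperones. The bound receptor enters the nucleus and binds palindromic response elements, where it raises genes such as Fkbp5, Tsc22d3 and Sgk1, and it also restrains inflammatory transcription factors. In the lung the receptor is known for its part in the maturation of alveolar epithelium and surfactant and for damping inflammation, and the metallothionein genes Mt1 and Mt2 answer both to it and to zinc and other metals.

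All 9 genes had a mean log2 ratio of tamoxifen over oil below 0, from -0.03 for Nr3c1 to -1.16 for Mt2. The median of the 9 means was -0.28, beside -0.00389 over the 20475 genes tested, of which 51.2% were below 0. Mt1 and Mt2 stood 3.1-fold and 5.66-fold lower in the tamoxifen sample of couple 1, 1.86-fold and 2.16-fold lower in couple 3, and 1.08-fold and 1.09-fold higher in couple 2. By the probe that stood for each gene, Klf9 was the only member below 0 on all 6 arrays. The receptor gene itself lay within 0.14 of 0 in every couple. Since the direction of the means was in view when the genes were chosen, no weight is placed on their count.

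By limma across all genes, 0 of the 9 had an adjusted p under 0.05, where 0% of all genes did, and 2 had an unadjusted p under 0.05, where 7.01% of genes did. With the couple as a random block over the 6 arrays, 0 of the 9 were called, where 0.274% of genes were. Below 0 on all 6 arrays was 1 member, against 7.21% of genes, and below 0 in all 3 couples were 3 (Zbtb16, Klf9 and Hsd11b1), against 16.4% of genes. All tamoxifen samples lay below all oil samples for 1 member, Zbtb16, against 7.14% of genes, and above them for 0 members, against 5.2%. None was above 0 in all 3 couples (13.8% of genes) or on all 6 arrays (6.04%). These shares are given as background, and nothing is read from them, because the same ratios chose the members.

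Of the whole data set, the share of probes well above background ran from 51.8% to 58.8% over the arrays and channels, and 0 spots were saturated. The ratios of the dye orientations correlated across genes with r from 0.763 to 0.787 within couples, and those of different couples with r from -0.024 to 0.17, where genes are not independent replicates. Of 11 alveolar type 2 markers, all were tested, and their summed level (the log2 of the summed signals) was 19.25 to 19.27 in the tamoxifen and 19.53 to 19.59 in the oil samples, so the defining epithelial genes of the labelled tissue were present in all 6 samples. The probe of Ror1, the targeted gene, had a log2 ratio of 0.58, 0.44 and 0.18 in couples 1, 2 and 3 (mean 0.40 ± 0.21, SD, n = 3; limma, adjusted p = 0.688), which goes against the treatment label. The labels do not give the floxed exon, and a probe outside it checks nothing, so samples are named by their labels only. In couple 1 the sex-linked signal differed between the samples: Xist, the RNA of the inactive X, was at 6.62 in tamoxifen sample 1 and 8.74 in oil sample 1, while the Y-linked Eif2s3y was at 9.73 and 6.01. The log2 ratio of Xist was -2.13 in couple 1 but 0.09 and 0.10 in couples 2 and 3, and that of Eif2s3y was 3.71, 0.14 and 0.63. Couples 2 and 3 differed from each other, with Xist at 9.09 and 8.99 in tamoxifen and oil samples 2 and at 6.08 and 5.98 in samples 3, and Eif2s3y at 6.20 and 6.06 against 10.70 and 10.07.

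Levels below are normalised log2 intensities, which compare samples for 1 probe and not 1 probe with another. Of the 9 genes, 7 had more than 1 probe, and the probe with the highest mean signal stood for each gene. For every member this probe stood well above background in each of 6 readings of tamoxifen and 6 of oil. The plot of levels by sample shows each gene on the same span.

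**Figure D1:**
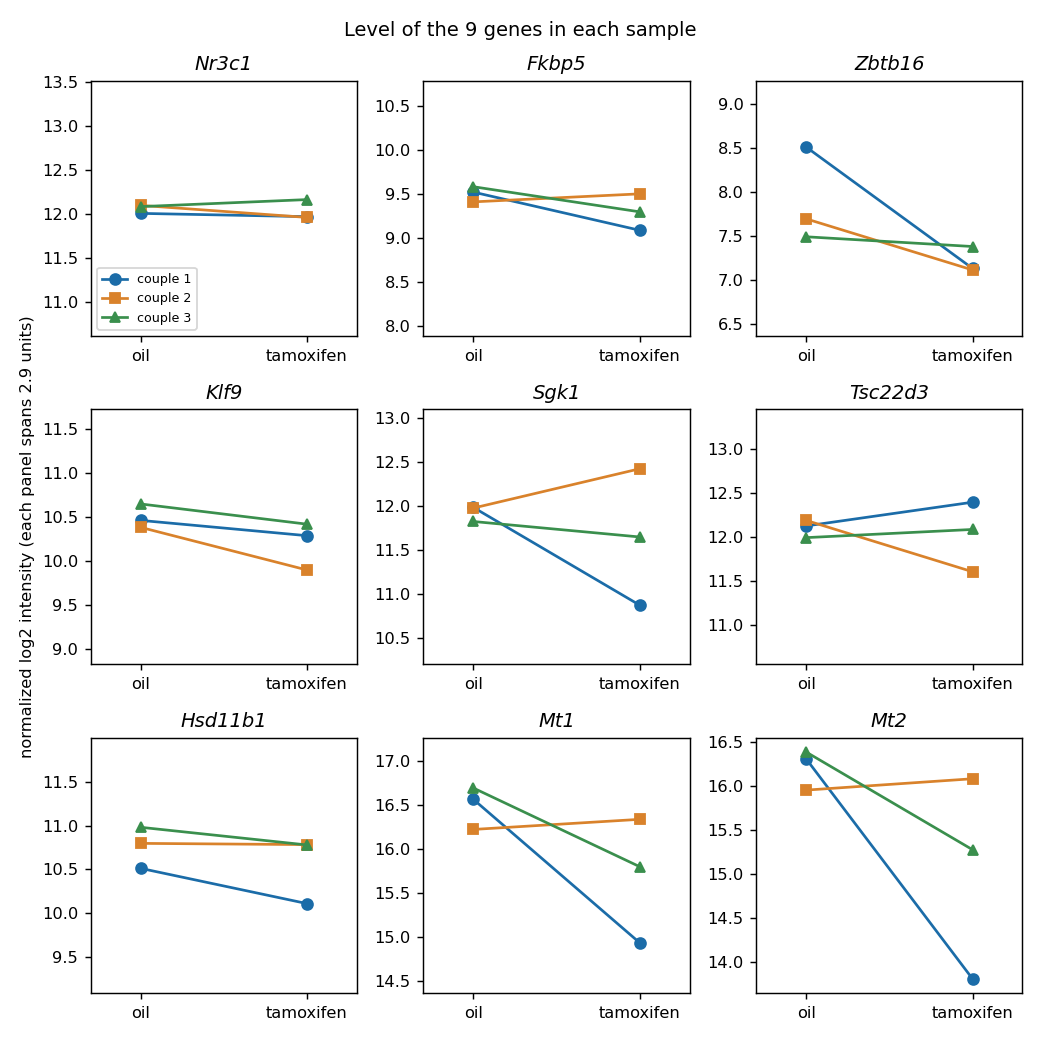
Normalised log2 intensity of the 9 genes in the 3 oil and 3 tamoxifen samples, with a line joining the samples of a couple (blue circles, couple 1; orange squares, couple 2; green triangles, couple 3). Each panel spans 2.9 log2 units, so slopes can be compared; Mt2 in tamoxifen sample 1 (13.81) is the point farthest from its group, and Nr3c1 is nearly flat.

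Nr3c1, the receptor gene, was at 11.97, 11.96 and 12.16 in tamoxifen samples 1, 2 and 3 and at 12.00, 12.10 and 12.08 in oil samples 1, 2 and 3. The groups overlapped, with the highest value in tamoxifen sample 3 and the lowest in tamoxifen sample 2. Its log2 ratio was -0.04, -0.14 and 0.08 in couples 1, 2 and 3, a mean of -0.03 ± 0.11 (SD, n = 3 couples), with 3 of 6 arrays below 0. A further Nr3c1 probe, also well above background throughout, averaged -0.12 ± 0.05.

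Genes of the proteins that hold and serve the receptor, listed together with the related receptor gene Nr3c2, had a median ratio near 0. Of these 18 genes, for chaperones, co-chaperones, coregulators and Nr3c2, all were tested and 0 passed limma in either direction. A mean ratio below 0 was seen for 5, Nr3c2 among them, and the list median was 0.02. The heat shock protein 90 genes Hsp90aa1 and Hsp90ab1 were at -0.01 ± 0.24 and 0.07 ± 0.13. Only Nr3c2, the mineralocorticoid receptor gene and the closest relative of Nr3c1, had the same sign on all 6 arrays, at -0.47 ± 0.30 (limma, adjusted p = 0.688). Its couples 1, 2 and 3 were at -0.30, -0.30 and -0.82.

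Hsd11b1 encodes the enzyme that regenerates active glucocorticoid from its inert keto form. Its level was 10.11, 10.78 and 10.78 in the tamoxifen samples and 10.51, 10.80 and 10.98 in the oil samples. Tamoxifen sample 1 was the lowest of the 6, and the groups overlapped. The log2 ratio was -0.40, -0.01 and -0.20 in the couples, a mean of -0.21 ± 0.19 (SD, n = 3), and 5 of 6 arrays were below 0. Its single probe lies on chromosome 1 from 195048169 to 195048228 (mm9).

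Other genes of steroid handling were mixed. Of 9 listed, 6 were tested, 0 passed limma in either direction, and the median was 0.05 with 3 below 0. Hsd11b2, the enzyme of the opposite reaction, was at 0.17 ± 0.37. Srd5a1, a steroid 5-alpha reductase that also takes glucocorticoids as substrates, was above 0 on all 6 arrays, at 0.57, 0.77 and 0.70 in the couples, a mean of 0.68 ± 0.10 (limma, adjusted p = 0.671). With the couple as a random block its adjusted p was 0.0427, and with a dye term as well it was 0.27 (limma).

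Fkbp5 encodes a co-chaperone that lowers the hormone binding of the receptor and is itself induced by it. It was at 9.08, 9.50 and 9.29 in the tamoxifen samples and at 9.52, 9.41 and 9.58 in the oil samples. Tamoxifen samples 1 and 3 lay below every oil sample, and tamoxifen sample 2 lay above oil sample 2, so the groups overlapped. The log2 ratio was -0.43, 0.09 and -0.29, a mean of -0.21 ± 0.27 (SD, n = 3 couples). A further Fkbp5 probe gave -0.38, 0.05 and -0.32, while another never reached the level called well above background. The main probe lies on chromosome 17 from 28536060 to 28536119 and the further one from 28574995 to 28575054 (mm9).

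The Fkbp5 and Hsd11b1 ratios were the closest of any 2 members, with a root mean square difference of 0.0879 over the 6 arrays. Among tested genes outside the set, Lrrfip1 (0.0442), Uqcrc2 (0.0447) and B4galt1 (0.047) had the smallest such difference from Fkbp5. These are measures of likeness over 6 arrays that share samples in couples, and they carry no test.

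Tsc22d3 encodes GILZ, a leucine zipper protein that carries anti-inflammatory effects of glucocorticoids. Its level was 12.40, 11.61 and 12.09 in the tamoxifen samples and 12.13, 12.19 and 11.99 in the oil samples. Tamoxifen sample 1 was the highest of the 6 and tamoxifen sample 2 the lowest. The log2 ratio was 0.27, -0.58 and 0.09, a mean of -0.07 ± 0.45 (SD, n = 3 couples), opposite in sign to Fkbp5 in each couple. A further probe gave -0.01, -0.61 and 0.02, close to the main probe in couple 2 and lower in couple 1.

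Klf9 encodes a zinc finger repressor that glucocorticoids and thyroid hormone induce. It was at 10.29, 9.90 and 10.42 in the tamoxifen samples and at 10.46, 10.38 and 10.65 in the oil samples. Each tamoxifen sample was below its oil partner, yet the groups overlapped because tamoxifen sample 3 lay above oil sample 2. The ratio was -0.17, -0.48 and -0.23 in the couples, a mean of -0.30 ± 0.17 (SD, n = 3), and from -0.12 to -0.56 over the 6 arrays. A further Klf9 probe gave -0.08, -0.52 and -0.22, and was at 0.02 on the couple 1 array with tamoxifen in Cy3. Its nearest listed relative, Klf13, was also below 0 on all 6 arrays, at -0.34 ± 0.08 (limma, adjusted p = 0.688). Among 13 relatives of the members, 11 were tested, 8 had a mean below 0, the median was -0.04 and 0 passed in either direction.

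Zbtb16 encodes PLZF, a transcription factor that glucocorticoids induce in many cells and that innate-like lymphocytes also express. It was at 7.13, 7.11 and 7.38 in the tamoxifen samples and at 8.51, 7.69 and 7.49 in the oil samples. The tamoxifen samples all lay below the oil samples, by 0.11 at the nearest, and oil sample 1 stood highest. The log2 ratio was -1.38, -0.58 and -0.11 in the couples, a mean of -0.69 ± 0.64 (SD, n = 3).

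The separation of the Zbtb16 groups rested on 1 array. In couple 1 the ratio was 0.12 with tamoxifen in Cy5 and -2.88 with tamoxifen in Cy3, a gap of 3 log2 units between the dye orientations that 4 others of the 20475 genes matched or exceeded. On that second array the Cy5 mean signal of oil sample 1 was 1690, while the Cy5 signals of this probe on the other 5 arrays were 160 to 301, and no outlier flag was set. Without that array the level of oil sample 1 was 6.94, below every tamoxifen sample, and the mean ratio was -0.19. Another Zbtb16 probe never stood well above background. Markers of innate-like lymphoid cells had mean ratios of 0.01, 0.20 and 0.04 in couples 1, 2 and 3 (6 of 6 tested, summed level 11.45 to 11.56 in tamoxifen and 11.53 to 11.83 in oil samples), and those of T and NK cells 0.12, 0.15 and 0.15 (7 of 10 tested, with Cd8a, Klrb1c and Ncr1 too dim; summed level 11.30 to 11.52 in tamoxifen and 11.22 to 11.43 in oil samples). Their part in the Zbtb16 values was not tested.

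**Figure D2:**
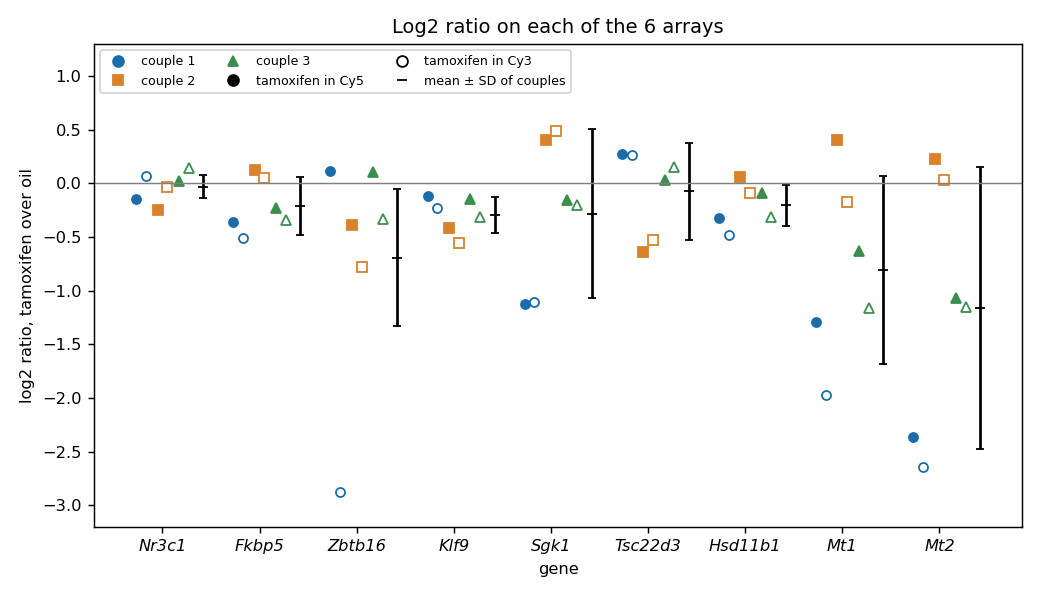
Log2 ratio of tamoxifen over oil for the 9 genes on each of the 6 arrays (filled, tamoxifen in Cy5; open, tamoxifen in Cy3; colour and shape give the couple), with the mean ± SD of the 3 couples in black. The open circle of Zbtb16 at -2.88 lies 3 log2 units below its dye-swapped partner, whereas the paired points of Sgk1 lie within 0.08 of each other although its couples run from -1.11 to 0.45.

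Sgk1 encodes a serine/threonine kinase that glucocorticoids and mineralocorticoids induce and that raises sodium channel activity in epithelia. Its level was 10.87, 12.43 and 11.65 in the tamoxifen samples and 11.99, 11.98 and 11.83 in the oil samples. The oil samples lay within 0.16 of each other, while tamoxifen sample 1 was the lowest and tamoxifen sample 2 the highest of the 6. The log2 ratio was -1.11, 0.45 and -0.18, a mean of -0.28 ± 0.78 (SD, n = 3 couples), and the dye-swapped arrays of a couple differed by at most 0.08. The spread between couples is thus far larger than the spread between arrays of the same samples.

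The RefSeq table holds 6 start sites for Sgk1 (build GRCm38.p6), and the 250 bases before the fifth of them hold a full palindromic glucocorticoid response element. This window is shown because the element, the arm AGAACA, 3 free bases and the arm TGTTCT, occurs in it and in 2 others among 32851 such windows of all genes (0.00913% in all). It lies at chr10:21993640-21993889 on the plus strand and is read 5′ to 3′, with the element and a separate arm TGTTCT in capitals.
Sgk1 window 5: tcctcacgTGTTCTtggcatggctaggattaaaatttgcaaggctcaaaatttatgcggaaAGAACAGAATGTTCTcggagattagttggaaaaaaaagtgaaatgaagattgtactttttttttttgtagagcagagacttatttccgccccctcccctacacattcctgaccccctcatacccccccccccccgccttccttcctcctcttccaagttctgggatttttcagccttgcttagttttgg
The element begins 189 bases before the start site. The arm TGTTCT, searched on both strands and also counted inside the full element, was in 16.1% of all windows, in 3 of the 6 Sgk1 windows and in 1 of 3 Tsc22d3 windows. It was in none of the windows of Fkbp5, Klf9, Hsd11b1, Mt1 and Mt2. Windows of 7 of the 9 members were searched, and those of Nr3c1 and Zbtb16 were not. A match describes the letters and does not show binding. Which start sites the main Sgk1 probe (chromosome 10 from 21719390 to 21719449, mm9) reads was not tested. Another Sgk1 probe, from 21618550 to 21618609, never stood well above background.

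Mt1 and Mt2 encode metallothioneins, small cysteine-rich proteins that bind zinc and copper. They lie side by side on chromosome 8, with the Mt1 probe from 96704165 to 96704224 and the Mt2 probe from 96697371 to 96697430 (mm9). The 250 bases before their start sites are shown because these genes had the lowest ratios of the set and lie next to each other. They are RefSeq sequences of build GRCm38.p6, from chr8:94178839-94179088 for Mt1 and chr8:94172368-94172617 for Mt2, both on the plus strand and read 5′ to 3′. Capitals mark matches to the metal response cores TGCACNC and TGCGCNC on either strand.
Mt1: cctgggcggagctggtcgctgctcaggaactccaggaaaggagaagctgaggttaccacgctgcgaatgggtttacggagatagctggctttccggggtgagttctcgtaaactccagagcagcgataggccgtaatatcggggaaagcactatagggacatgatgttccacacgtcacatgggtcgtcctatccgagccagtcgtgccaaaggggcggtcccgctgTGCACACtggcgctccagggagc
Mt2: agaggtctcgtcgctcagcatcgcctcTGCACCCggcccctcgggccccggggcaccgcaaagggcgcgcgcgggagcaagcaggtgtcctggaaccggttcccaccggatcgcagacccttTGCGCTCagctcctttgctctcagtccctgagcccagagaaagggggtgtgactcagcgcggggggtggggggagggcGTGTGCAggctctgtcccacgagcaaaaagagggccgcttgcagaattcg
The core TGCACNC was found 1 time before Mt1 and 2 times before Mt2 and is in 10.4% of all windows, while TGCGCNC was found 1 time before Mt2 and is in 12.5%. The window of Hsd11b1 also holds 1 TGCACNC.

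The level of Mt2 was 13.81, 16.08 and 15.28 in the tamoxifen samples and 16.31, 15.96 and 16.39 in the oil samples. Tamoxifen samples 1 and 3 lay below all oil samples, and tamoxifen sample 2 lay among them. Its log2 ratio was -2.50, 0.13 and -1.11 in couples 1, 2 and 3, a mean of -1.16 ± 1.32 (SD, n = 3), which is 2.24-fold lower but smaller than its own SD. The dye-swapped arrays of a couple differed by 0.09 to 0.27.

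Mt1 was at 14.94, 16.34 and 15.80 in the tamoxifen samples and at 16.57, 16.23 and 16.70 in the oil samples. The order of the 6 samples was that of Mt2, with tamoxifen sample 1 lowest, tamoxifen sample 3 next, and tamoxifen sample 2 among the oil samples. Its log2 ratio was -1.63, 0.12 and -0.90, a mean of -0.80 ± 0.88 (SD, n = 3 couples). Its dye-swapped arrays differed by 0.68, 0.58 and 0.53 in the couples, and in couple 2 they had opposite signs, at 0.41 and -0.18. A further Mt1 probe gave -1.29, 0.08 and -0.11 and so differed from the main one in couple 3. The 2 genes are similar in sequence, and binding of their RNA to each other's probe was not tested.

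Over the 6 arrays the root mean square difference between Mt1 and Mt2 was 0.556, and 59 genes were nearer to Mt1 than Mt2 was. The nearest named genes were the pseudogene Mcpt-ps1 (0.247) and Depp1 (0.258), named 8430408G22Rik on the array, and the third was a noncoding RNA probe without a gene symbol (0.265). The other metallothioneins on the arrays, Mt3 and Mt4, were at -0.12 ± 0.08 and -0.04 ± 0.07.

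Genes that answer to metals and to oxidative stress, listed to set beside Mt1 and Mt2, had a median of -0.06, with 12 of 13 tested, 7 below 0 and 0 passed by limma in either direction. Mtf1, the zinc-sensing factor that drives metallothioneins, was at 0.04 ± 0.07, and Slc30a1, a zinc exporter that Mtf1 also drives, at 0.05 ± 0.20. Heme oxygenase Hmox1 was at -0.98, 0.18 and -0.68 in couples 1, 2 and 3, where the mean of the whole list was 0.06, -0.07 and -0.265. The quinone reductase Nqo1 was the only one of the list with the same sign on all 6 arrays, at -0.45 ± 0.24 (limma, adjusted p = 0.688).

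Couples split the members into differing patterns. Fkbp5, Sgk1, Mt1 and Mt2 were below 0 in couples 1 and 3 and above 0 in couple 2, a sequence of signs that 11.3% of all genes showed. By its main probe Tsc22d3 had the opposite sequence, while its further probe was at -0.01 in couple 1. Klf9 was lowest in couple 2. In couple 1, 4 members (Zbtb16, Sgk1, Mt1 and Mt2) were over 2-fold lower, against 0.908% of genes; by the array with tamoxifen in Cy5 alone they were 3, without Zbtb16. In couple 3, Mt2 was over 2-fold lower, against 0.791%. In couple 2 no member was over 2-fold lower, where 0.679% of genes were, and none was over 2-fold higher in any couple. Nothing is read from these counts, because the same ratios were in view when the members were chosen.

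Alveolar macrophage markers had the same sequence of signs. Their mean ratio was -1.17, 0.62 and -0.47 in couples 1, 2 and 3, and 14 of 14 were below 0 in couple 1, 13 of 14 above 0 in couple 2 and 10 of 14 below 0 in couple 3. The summed level of the macrophage markers was 16.33, 18.16 and 17.01 in tamoxifen samples 1, 2 and 3 and 17.76, 17.10 and 17.78 in the oil samples. Tamoxifen sample 1 was thus lowest and tamoxifen sample 2 highest, as for Sgk1. Of the 14 macrophage markers, 13 were well above background in every reading, and the remaining marker in enough of them to be tested. The mean over couples had 13 of 14 markers below 0, and 0 passed limma. In a bulk sample, fewer cells of a type and less RNA per cell cannot be told apart, and the part of these markers in the values of Fkbp5, Sgk1, Mt1 and Mt2 was not tested. The part of the sex-linked signal that differs in couple 1 was not tested either. In couples 2 and 3, where the tamoxifen and oil samples of a couple were alike in Xist although the couples differed from each other, Mt2 was at 0.13 and -1.11 and Sgk1 at 0.45 and -0.18.

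**Figure D3:**
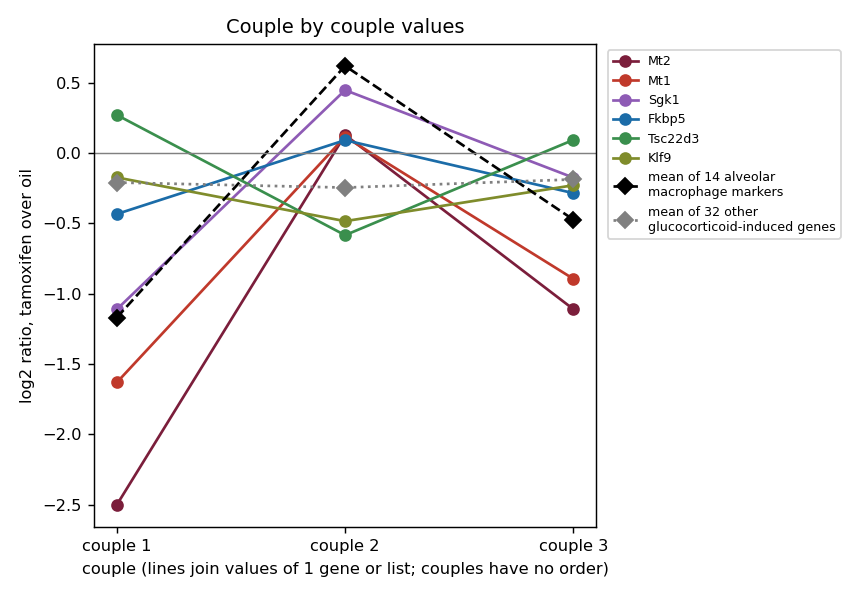
Log2 ratio of tamoxifen over oil in couples 1, 2 and 3 for 6 of the genes (solid lines), with the mean of 14 alveolar macrophage markers (black dashes) and of 32 other glucocorticoid-induced genes (grey dots); lines only join values of 1 gene or list, since couples have no order. Mt2, Mt1, Sgk1 and Fkbp5 share their signs with the mean of the macrophage markers. The means of erythroid and of fibroblast markers, not drawn, share them too. The Tsc22d3 probe drawn has the opposite signs, and the grey line stays between -0.25 and -0.19.

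The tamoxifen samples varied more among themselves than the oil samples did for 8 of the 9 members, where 55.2% of all genes did. The range over the 3 samples was 1.55 in tamoxifen and 0.16 in oil for Sgk1, 2.28 and 0.433 for Mt2, 1.41 and 0.471 for Mt1, and 0.791 and 0.197 for Tsc22d3. The exception was Zbtb16, with 0.267 and 1.02. Over all genes the median range was 0.246 in tamoxifen and 0.223 in oil samples. The SD over couples of Mt2 was above that of 99.6% of genes, of Mt1 above 98.4% and of Sgk1 above 97.8%, while Klf9 was above 49.5% and Nr3c1 above 29.6%. Ranges and SDs come from the same values that were in view when the members were chosen, so they are a description only.

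A list of 33 other genes known to be induced by glucocorticoids was set beside the members. Of these, 32 were tested (Cd163 was not), 25 had a mean ratio below 0, and the list median was -0.18. By limma 0 passed. At an unadjusted p under 0.05, 10 were lower and 1 higher, where 4.01% of all genes were lower and 3% higher. The list mean was -0.21, -0.25 and -0.19 in couples 1, 2 and 3, or -0.22 ± 0.03 (SD, n = 3 couples). The medians of the 9 members in the same couples were -0.43, -0.01 and -0.20. The list was drawn up with earlier results of these data known, which limits what its counts can show.

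On all 6 arrays 10 of the 32 were below 0, where 7.21% of all genes were, and 1 was above, where 6.04% were. Per1, a circadian repressor with glucocorticoid response elements, was at 10.65, 10.77 and 10.94 in the tamoxifen samples and 11.48, 11.58 and 12.03 in the oil samples, groups that did not overlap. Its log2 ratio was -0.83, -0.81 and -1.09, a mean of -0.91 ± 0.16 (limma, adjusted p = 0.569). With the couple as a random block the adjusted p was 0.0117, and with a dye term as well it was 0.038 (limma). Both of these fits draw on the dye-swapped arrays of a couple, which are not separate samples. Cdkn1c, a cyclin-dependent kinase inhibitor, was at -0.63 ± 0.19, lower in all 3 couples (limma, adjusted p = 0.688, 0.0398 with the couple as a random block and 0.0858 with a dye term as well).

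Errfi1, which restrains EGFR signalling, was at -0.59 ± 0.31, and Lcn2, an iron-siderophore binding protein, at -0.53 ± 0.35. The transcription factor Cebpd was at -0.47 ± 0.12 and Anxa1, an anti-inflammatory annexin, at -0.46 ± 0.30, all with adjusted p = 0.688 in limma. Beyond these 6, the remaining genes below 0 on all arrays were Dusp1, Zfp36, Pdk4 and Serpina3n, from -0.42 to -0.28, named here after their values were seen. Pik3ip1, at 0.33 ± 0.21, was the gene above 0 on all arrays, named in the same way.

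**Figure D4:**
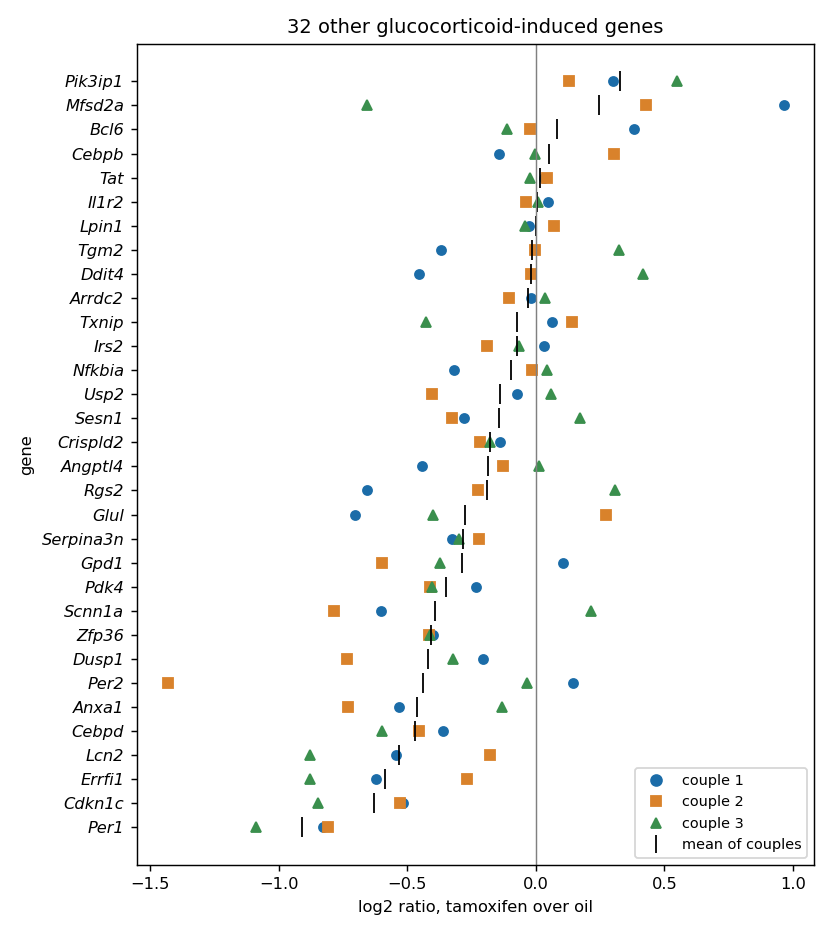
Log2 ratio of tamoxifen over oil in the 3 couples for 32 other glucocorticoid-induced genes, sorted by the mean over couples (black bars). Per1 at the bottom has all couples between -0.81 and -1.09, and 25 of the 32 means lie below 0.

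Alveolar type 2 markers, like this list, had a mean ratio below 0 in all couples, and so did heart muscle markers (-0.175, -0.634 and -0.047). The type 2 mean was -0.17, -0.27 and -0.46 in couples 1, 2 and 3, against -0.21, -0.25 and -0.19 for the list. In couple 3 the marker Napsa was at -2.01, and the median of the type 2 markers was -0.30. On average 10 of 11 were below 0, and their summed levels did not overlap between the groups, as given above. The summed level of the glucocorticoid-induced list was 16.96 to 17.18 in the tamoxifen and 17.34 to 17.64 in the oil samples, also without overlap. Such sums are weighted to the brightest probes, in this list Lcn2. Taken singly, 7 of its 32 genes were lower in all tamoxifen than in all oil samples, where 7.14% of all genes were. The part of the type 2 markers in that list was not tested.

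Genes that glucocorticoids repress, mostly inflammatory mediators, differed in direction from gene to gene. Of 15 listed, 11 were tested, 4 were below 0 and 7 above, the median was 0.03 and 0 passed limma in either direction. The list mean was 0.16, 0.10 and 0.25 in couples 1, 2 and 3, or 0.17 ± 0.08 (SD, n = 3 couples). The list medians in the same couples were -0.04, -0.02 and 0.03. The chemokines Cxcl1 and Cxcl5 were at 0.95 ± 1.21 and 1.09 ± 1.10, each with a spread as large as its mean, and the cytokine genes Il6, Il1b and Tnf each at 0.03 or 0.04. The adhesion molecule gene Vcam1 was the only one of these with the same sign on all 6 arrays, at -0.41 ± 0.33 (limma, adjusted p = 0.688).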

How the data were processed

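The arrays were 2-colour Agilent mouse arrays, 6 in 3 dye-swapped couples. All lay on 1 slide. Per the file headers, the scanner output deposited by the authors gives un-normalized spot intensity, a log10 ratio of Cy5 over Cy3, and flags of 0 or 1. It came from Agilent Feature Extraction, version 12.0.3.1 in the submitters' processing notes. The authors' deposited table holds log2 ratios, which had a slope of 3.32 against the log10 ratio and so the same direction. Its column medians were 0.14, -0.14, -0.064, 0.13, -0.15 and -0.0054, so the columns were not centred on a median of 0. Probe positions are on mm9 per the file headers, and exons of that build were not used here.

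From the intensities, limma 3.58.1 (R 4.3.3) applied normexp with an offset of 50 and loess within arrays, with the 3671 control spots at weight 0 and spots with an outlier flag left out. The offset pulls ratios of dim probes toward 0. The brightest probe stood for each gene, and it was tested if, in the tamoxifen or the oil channel, 2 or more couples had it well above background on both their arrays (20475 of 36870 gene names). Of the gene names, 22176 matched RefSeq. Ratios were turned to tamoxifen over oil, averaged by couple and fitted against 0 by limma, two-sided, with Benjamini-Hochberg adjustment at 0.05. Levels came after loess and Aquantile. The number of arrays limits the precision, and the fit was tested on simulated data.

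The members, lists and tests were chosen with earlier results of these data known. Named genes were the 9 members; in each list up to 6 tested genes with the same sign on all 6 arrays, by absolute mean; and the 3 genes nearest to Fkbp5 and to Mt1. Outside this rule, and after their values were seen, further genes of the lists were named for their known role (Hsp90aa1, Hsp90ab1, Hsd11b2, Mt3, Mt4, Mtf1, Slc30a1, Hmox1, Cxcl1, Cxcl5, Il6, Il1b and Tnf) or to complete a count (Dusp1, Zfp36, Pdk4, Serpina3n and Pik3ip1), as were marker genes and Ror1. Samples of 1 number share their arrays, so the couple is within each ratio; their deviations from the group means correlated by 0.095, 0.16 and 0.16. The alternatives were other background corrections, normalizations, ratio sources, probe rules and filters, the replicate block, channels apart, and leaving out a couple or a dye orientation.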

Additional observations from a re-analysis of the deposited data

How the results depend on the processing

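Under 17 alternatives, 0 members were called by limma, and the median of the members' means was -0.36 to -0.152. The means of Fkbp5, Zbtb16, Klf9, Hsd11b1, Mt1 and Mt2 were below 0 in all 17, with Mt2 from -1.81 to -0.49 and Zbtb16 from -1.33 to -0.05. Nr3c1 was above 0 in 3 of them (up to 0.06), Sgk1 in 1 (0.14) and Tsc22d3 in 1 (0.18). Not all 17 could move a member's mean. The filters on dim probes, the replicate block with or without a dye term, and the channels apart left each mean as in the main analysis. The scanner software's log ratio and the deposited table gave the same means as each other. These sign counts are a description of ratios that were in view when the members were chosen. Over all genes, the count of calls was 0 in the main analysis, 56 with the replicate block (19 higher, 37 lower), 9 with the replicate block and a dye term (3 higher, 6 lower), and 1 with the channels apart and no replicate block. The dye term, and couple 1 taken by its array with tamoxifen in Cy5 alone, were added after seeing the data. The median of the corticosteroid metabolism list was -0.0274 when probes had to be well above background on all arrays. That of the metal and oxidative stress list was -0.144 to 0.0172 when a couple was left out. The cause was not tested. The precision is limited by the number of arrays, and for probes near background the offset pulls ratios toward 0.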
